A study of Mus musculus with 6 samples.

Results

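Selenoproteins are enzymes and binding proteins that carry selenocysteine, a selenium analogue of cysteine, usually at the active site. Selenocysteine is written in the mRNA as UGA, a codon that otherwise ends translation. A stem-loop in the 3′ part of the mRNA, the SECIS element, together with a binding protein and a dedicated elongation factor, makes the ribosome read it as an amino acid. In rodents short of selenium, the mRNAs of some selenoproteins, among them Gpx1, Selenow and Selenoh, are known to fall more than those of others such as Gpx4, and decay of the mRNA at an unread UGA codon is part of this.

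The genes described here are 10 selenoprotein genes other than Gpx4, taken by symbol from the mRNA tables: Selenoh, Selenow, Selenom, Selenot, Selenof, Selenok, Selenos, Selenop, Gpx1 and Sephs2. All 10 were listed among 11609 mRNA genes, and all 10 reached 1 FPKM (fragments scaled by transcript length and library size) in at least 3 of 6 libraries, the minimum for testing. Another 9 selenoprotein genes were in the tables, Gpx4 and the thioredoxin reductases included.

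RNA came from N2a cells, a mouse neuroblastoma line. Every culture had first been differentiated with 10 µM retinoic acid for 96 h in medium with 2% serum. The RSL3 cells then received the compound RSL3, which inhibits the lipid peroxide-reducing selenoprotein GPX4 and induces ferroptosis, at 5 µM for 24 h (3 libraries). The DMSO cells received the solvent alone (3 libraries). All results are from 1 cell line. The sources used here do not say if the 3 libraries per treatment were separate cultures, so the p-values measure the spread between these libraries, which may be technical. They do not give the selenium content of the medium either. The comparison addresses how RNA levels in differentiated N2a cells differ after a ferroptosis inducer.

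Some neuronal markers were present. The neuronal tubulin gene Tubb3 stood at 113 to 117 FPKM in RSL3 libraries and 115 to 117 FPKM in DMSO libraries. The neuronal markers Rbfox3, Nefl and Nefm were not listed, which leaves 5 of 8. The summed mRNA values ranged from 200100 to 213800 FPKM in RSL3 libraries and from 220600 to 225300 FPKM in DMSO libraries, and the read depth is unknown. Across genes, the difference of RSL3 replicate 1 from the other RSL3 libraries correlated with transcript GC content at 0.646, that of RSL3 replicate 2 at -0.607 and that of RSL3 replicate 3 at -0.238. The DMSO libraries lay between -0.0707 and 0.113. The lncRNAs Gm26917 and Gm42418, which overlap ribosomal RNA sequence, summed to 29860 ± 3245 FPKM in RSL3 libraries and 20970 ± 2098 FPKM in DMSO libraries (SD, n = 3 each).

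The selenocysteine codons of 8 of the genes are shown because their place in the reading frame differs between genes. It was codon 38 in Selenoh, 13 in Selenow and 48 in Selenom, which fell with RSL3. Among genes that did not pass, it was codon 49 in Selenot, 47 in Gpx1, 93 in Selenof and 63 in Sephs2. Each line is 5′ to 3′ coding sequence from the principal GENCODE M21 transcript (GRCm38), with the selenocysteine codon in capitals, 15 bases before it and up to 12 bases after it, or fewer where the reading frame ends first.
Selenoh: gagcattgtacgagcTGAcgcgtgtacggc
Selenow: gtgtattgtggagctTGAggctataagccc
Selenom: gagacctgtggaggaTGAcagttgaatcgc
Selenot: cagatttgtgtatccTGAgggtaccggcgg
Selenop (first of its codons): cttcttcaagccagcTGAtacttgtgtctt
Gpx1: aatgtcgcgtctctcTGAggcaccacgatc
Selenok: ccaatggctggtggaTGAggaaggtaa
Selenos: ccatcatctggcggcTGAaactaa

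In Selenoh, Selenow, Selenom and Selenot a cysteine codon (tgt) stood 3 codons before the selenocysteine codon, the thioredoxin-like arrangement of these genes. In Selenok the selenocysteine codon was codon 92 of 94 and in Selenos codon 189 of 190, so both sequences above run to the ordinary stop codon. Selenop had 10 selenocysteine codons, from codon 59 to codon 377 of 380, and each of the other 9 genes had 1. All of these positions matched the selenocysteine sites of the annotation.

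Of the 10 genes, 4 fell with RSL3 and 0 rose at an adjusted p under 0.05 (limma on log2(FPKM + 1), two-sided, Benjamini-Hochberg over all tested mRNAs). They were Selenop, Selenoh, Selenow and Selenom. At an unadjusted p under 0.05 there were 4 lower and 1 higher, and 2555 of all tested mRNAs were under it. Over all 10590 tested mRNAs, 6.38% were called, 3.92% lower and 2.46% higher. The number of the 10 called lower was 2 without DMSO replicate 2, with 1 called higher, and 2 without DMSO replicate 3; Selenoh and Selenop were called in both. The groups did not overlap for these 4 genes, with RSL3 lower, and for Sephs2, with RSL3 higher. Among all tested mRNAs 33.0% lay apart, 19.6% with RSL3 lower and 13.4% with RSL3 higher. The median log2 fold change was -0.26 over the 10 genes and -0.03 over all tested mRNAs, and without RSL3 replicate 1 it was -0.0082 over the 10 genes, with the same number called lower. In a bulk sample, fewer cells of one kind and less mRNA per cell cannot be told apart.

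**Figure D1:**
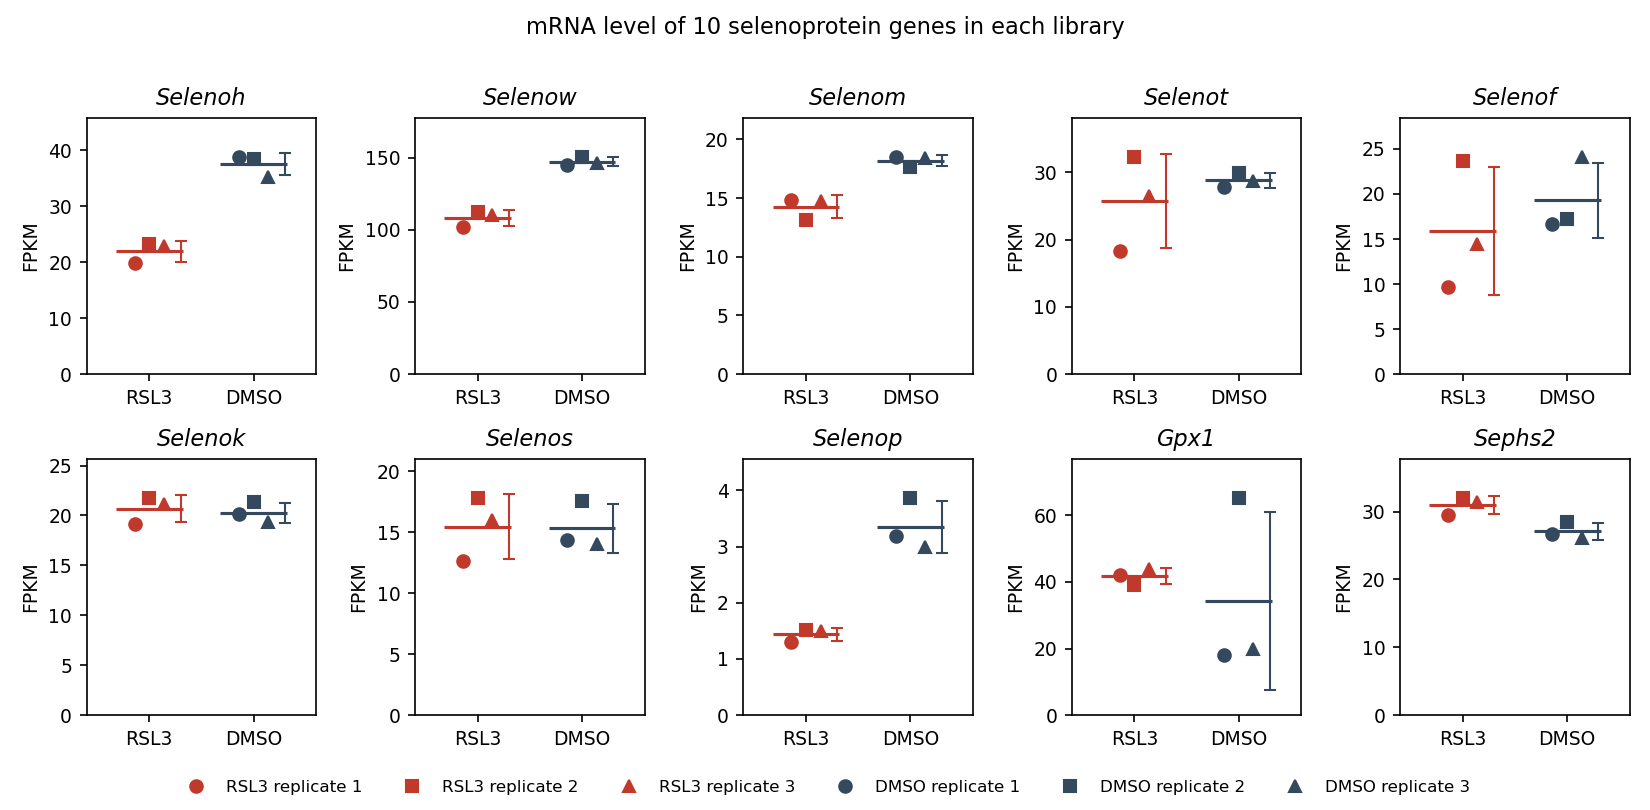
FPKM of each of the 10 genes in each library, with the mean (horizontal line) and SD (bar) of 3 libraries per group; every axis starts at 0. Selenoh, Selenow, Selenom and Selenop lie lower in all 3 RSL3 libraries, Sephs2 lies higher, and Gpx1 is spread from 17.9 to 65.2 FPKM within DMSO.

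FPKM is scaled by transcript length, so levels are set side by side here as a rough order. Length scaling does not remove differences in GC content or in how shared reads were counted, and their part in the order was not tested. Selenow was the most abundant of the 10 in both groups, at 35.4% to 37.9% of their summed FPKM in RSL3 libraries and 38.6% to 44.0% in DMSO libraries, and Selenop the least abundant. In RSL3 libraries the order after Selenow was Gpx1, Sephs2, Selenot, Selenoh, Selenok, Selenof, Selenos, Selenom and Selenop. In that order Selenow, Gpx1 and Sephs2 lay apart from each other, neighbours from Sephs2 down to Selenom overlapped, and Selenop lay apart. In DMSO libraries the order was Selenow, Selenoh, Gpx1, Selenot, Sephs2, Selenok, Selenof, Selenom, Selenos and Selenop. Selenoh was thus rank 5 by mean level in RSL3 libraries and rank 2 in DMSO libraries. Its values overlapped those of Selenot and Selenok in RSL3 libraries and those of Gpx1 in DMSO libraries. The summed FPKM of the 10 genes was 269.5, 316.6 and 302.9 in RSL3 libraries and 328.9, 390.2 and 334.9 in DMSO libraries (exact permutation test, two-sided, p = 0.1, the smallest that 3 against 3 libraries allow). As a share of the summed FPKM of all mRNAs, which was itself lower in RSL3 libraries, the 10 genes made up 0.135%, 0.148% and 0.143% in RSL3 libraries and 0.146%, 0.173% and 0.152% in DMSO libraries, and the groups overlapped. Without Selenow the sum was 188 ± 18.9 FPKM in RSL3 libraries and 204 ± 30.9 FPKM in DMSO libraries (SD, n = 3 each; exact permutation p = 0.6).

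Selenoh, Selenow and Selenom encode small selenoproteins with a thioredoxin-like fold. Selenoh (ENSMUSG00000076437.10; chr2:84669215-84670770, minus strand, selenocysteine codon at chr2:84670381-84670383) encodes a nuclear and nucleolar protein linked to redox defence. It had 19.8, 23.2 and 22.8 FPKM in RSL3 libraries and 38.8, 38.4 and 35.2 FPKM in DMSO libraries. Every RSL3 library lay below every DMSO library, and the RSL3 mean was 58.6% of the DMSO mean. The log2 fold change was -0.75 ± 0.08 (SE; 95% interval -0.94 to -0.56; adjusted p = 0.00494, limma). It was past the threshold under all 14 alternatives, with log2 fold changes from -0.79 to -0.68. A longer annotated gene on the same strand, Gm28635 (chr2:84601439-84678041), spans Selenoh, so reads of one could be counted to the other.

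Selenow (ENSMUSG00000041571.9; chr7:15917208-15922402, minus strand, selenocysteine codon at chr7:15920464-15920466) encodes a small cytosolic protein that is abundant in muscle and brain. Its level was 102, 112 and 110.5 FPKM in RSL3 libraries and 145, 151 and 146 FPKM in DMSO libraries. The groups lay apart, with RSL3 replicate 1 the lowest of all libraries, and the RSL3 mean was 73.5% of the DMSO mean (log2 fold change -0.44 ± 0.06 SE, adjusted p = 0.00915, limma). The call was lost without DMSO replicate 2 (adjusted p = 0.0596) and without DMSO replicate 3 (adjusted p = 0.0585). The log2 fold change was -0.33 after quantile normalization, its smallest size under the alternatives.

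Selenom (ENSMUSG00000075702.9; chr11:3514684-3517351, plus strand, selenocysteine codon at chr11:3516273-3516275) encodes a thioredoxin-like protein of the endoplasmic reticulum that is abundant in brain. It had 14.9, 13.1 and 14.8 FPKM in RSL3 libraries and 18.5, 17.7 and 18.4 FPKM in DMSO libraries. Here RSL3 replicate 2 was the lowest, and the groups did not overlap. The log2 fold change was -0.33 ± 0.07 (SE, adjusted p = 0.0426, limma), close to the threshold. Selenom missed the threshold when libraries were scaled by median ratios (adjusted p = 0.0829) or quantile-normalized (adjusted p = 0.0855), and when no mean-variance trend was fitted (adjusted p = 0.0534). It also missed it on leaving out RSL3 replicate 2 (adjusted p = 0.0589), RSL3 replicate 3 (adjusted p = 0.105), DMSO replicate 1 (adjusted p = 0.185), DMSO replicate 2 (adjusted p = 0.140) or DMSO replicate 3 (adjusted p = 0.161). It held without RSL3 replicate 1 (adjusted p = 0.0210) and with length and GC trends removed (-0.38, adjusted p = 0.00507).

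Selenot, Selenof, Selenok and Selenos encode proteins of the endoplasmic reticulum, and none of the 4 passed. Selenot (ENSMUSG00000075700.9; chr3:58576636-58593133, plus strand, selenocysteine codon at chr3:58585238-58585240) is a membrane-bound thioredoxin-like relative of Selenow. It had 18.3, 32.3 and 26.5 FPKM in RSL3 libraries and 27.7, 29.9 and 28.7 FPKM in DMSO libraries. RSL3 replicate 1 was the lowest and RSL3 replicate 2 the highest of all 6 (log2 fold change -0.19, 95% interval -0.62 to 0.23, adjusted p = 0.568, limma; 0.02 without RSL3 replicate 1). Selenof (ENSMUSG00000037072.15; chr3:144570304-144597680, plus strand), which binds the glycoprotein folding sensor UGGT, had 9.65, 23.7 and 14.5 FPKM in RSL3 libraries and 16.6, 17.2 and 24.1 FPKM in DMSO libraries. Its values spread more widely within each group (SD 7.12 FPKM in RSL3 and 4.17 FPKM in DMSO libraries, n = 3 each) than the means of 15.9 FPKM in RSL3 and 19.3 FPKM in DMSO libraries differed (log2 fold change -0.33, 95% interval -1.02 to 0.36, adjusted p = 0.543, limma). The log2 fold change of Selenof was -0.64 without RSL3 replicate 2 (adjusted p = 0.114) and -0.04 without RSL3 replicate 1. The transcripts of Selenot and Selenof have low GC content, at percentiles 7.18 and 14.4 of the tested mRNAs, and both were lowest in RSL3 replicate 1. The part of GC content in these values was not tested beyond the fit with its trend removed. With length and GC trends removed, the log2 fold changes were -0.08 for Selenot (adjusted p = 0.508) and -0.23 for Selenof (adjusted p = 0.549).

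Selenok and Selenos are single-pass membrane proteins of the endoplasmic reticulum that take part in the removal of misfolded proteins, with their selenocysteine near the C-terminal end. Selenok (ENSMUSG00000042682.9; chr14:29968308-29975662, plus strand, selenocysteine codon at chr14:29973440-29973442) had 19.1, 21.8 and 21.1 FPKM in RSL3 libraries and 20.1, 21.3 and 19.3 FPKM in DMSO libraries. The groups overlapped (log2 fold change 0.03, 95% interval -0.15 to 0.20, adjusted p = 0.863, limma). Selenos (ENSMUSG00000075701.9; chr7:66079649-66089405, plus strand, selenocysteine codon at chr7:66088844-66088846) had 12.6, 17.8 and 15.96 FPKM in RSL3 libraries and 14.3, 17.6 and 13.99 FPKM in DMSO libraries (log2 fold change 0.0081, 95% interval -0.32 to 0.33, adjusted p = 0.983, limma). The annotation holds 6 entries named as pseudogenes of Selenok and 1 named so for Selenot. Copies were looked for by name alone, and the entry Selenok-ps1 is typed as a processed transcript. The sources used here do not say how reads shared with these entries were counted.

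Selenop (ENSMUSG00000064373.12; chr15:3268547-3280508, plus strand, first selenocysteine codon at chr15:3274848-3274850) encodes selenoprotein P, a plasma protein made mostly by the liver that carries selenium to other tissues, brain included. Its mRNA was low in these cells, at 1.309, 1.509 and 1.502 FPKM in RSL3 libraries and 3.18, 3.86 and 3.00 FPKM in DMSO libraries. The groups lay far apart relative to their spread, and the RSL3 mean was 43.0% of the DMSO mean. The log2 fold change was -0.83 ± 0.10 (SE; 95% interval -1.07 to -0.59; adjusted p = 0.00643, limma). Adding 1 to low values shrinks the difference: with 0.1 added it was -1.16. It passed under all 13 alternatives in which it could be tested, and the filter of 5 FPKM in all 6 libraries left it out. The 3′ end of Selenop overlaps Ccdc152 on the opposite strand, and whether strand was used in counting is not stated.

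Liver transcripts were present in the same libraries and moved in the same direction. All 22 liver markers were listed, and their summed FPKM was 54.1, 50.8 and 36.6 in RSL3 libraries and 98.0, 138 and 122 in DMSO libraries (exact permutation p = 0.1, the smallest possible). Of the 19 that were tested, 17 fell and 0 rose, with 1 higher and 17 lower at an unadjusted p under 0.05 (limma). The albumin gene Alb had 10.5, 9.83 and 4.15 FPKM in RSL3 libraries and 24.0, 33.9 and 26.3 FPKM in DMSO libraries. The urinary protein gene Mup3 had 2.81, 3.09 and 2.28 FPKM in RSL3 libraries and 7.97, 13.3 and 12.6 FPKM in DMSO libraries. Rbp4, which many tissues express, had 12.17 to 14.02 FPKM in RSL3 libraries and 10.0 to 10.8 FPKM in DMSO libraries. Selenop in RSL3 libraries stood at 39.1%, 45.1% and 44.9% of its DMSO mean, and the liver sum without Rbp4 at 38.3%, 33.7% and 22.4% of its own. Among the RSL3 libraries, Selenop was lowest in replicate 1 and the liver sum in replicate 3. The part of liver transcripts in the Selenop difference was not tested. Among 10 macrophage markers, another cell type rich in Selenop mRNA, Cd68 alone was listed, at 0.596 to 0.606 FPKM in RSL3 libraries and 0.333 to 0.413 FPKM in DMSO libraries.

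**Figure D2:**
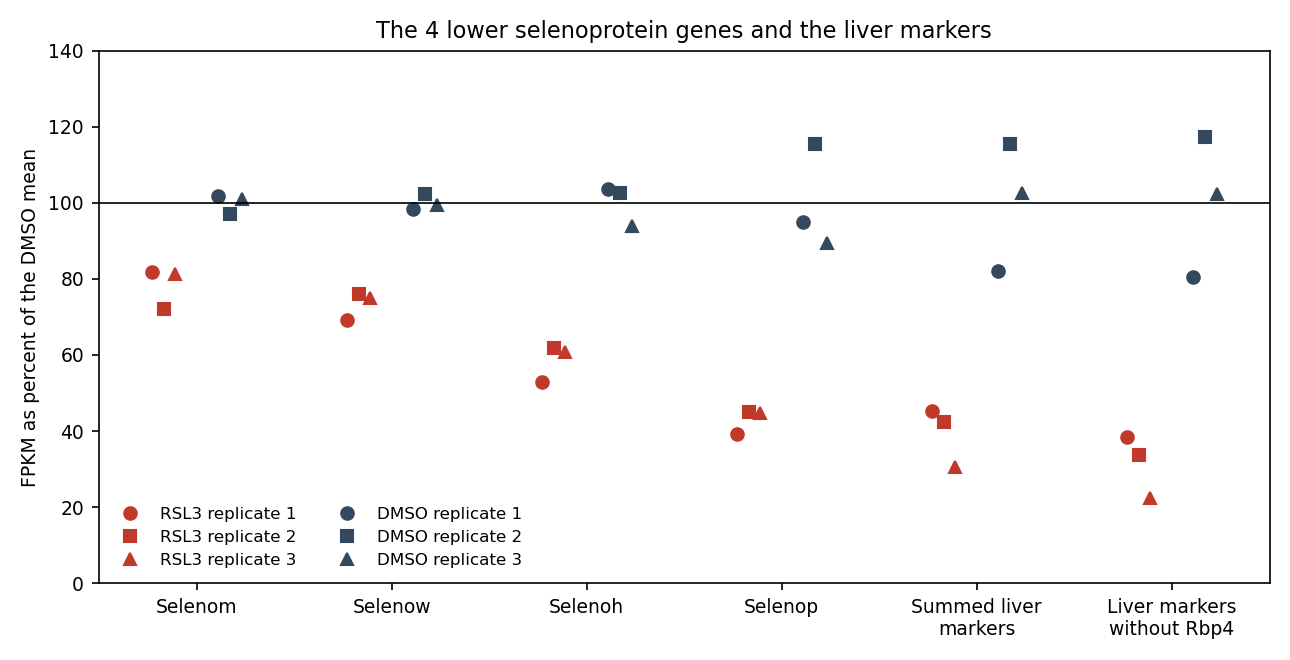
FPKM in each library as a percent of the mean of the 3 DMSO libraries, for the 4 genes that fell and for the summed liver markers with and without Rbp4. The RSL3 libraries of Selenop, at 39.1% to 45.1%, overlap those of the summed liver markers, at 30.6% to 45.3%, and lie above those of the sum without Rbp4, at 22.4% to 38.3%; the RSL3 libraries of Selenom, Selenow and Selenoh lie between 52.9% and 81.7%.

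Gpx1 (ENSMUSG00000063856.7; chr9:108338903-108340343, plus strand, selenocysteine codon at chr9:108339451-108339453) encodes the abundant cytosolic glutathione peroxidase, which reduces hydrogen peroxide but not the complex lipid peroxides that GPX4 handles. It had 42.2, 39.1 and 43.8 FPKM in RSL3 libraries and 17.9, 65.2 and 19.8 FPKM in DMSO libraries. The RSL3 libraries were alike, and DMSO replicate 2 lay above them while the other DMSO libraries lay below. The log2 fold change was 0.52 ± 0.43 (SE; 95% interval -0.50 to 1.55; adjusted p = 0.512, limma). Without DMSO replicate 2 it was 1.10 (adjusted p = 0.0169, limma), so its size and its call depend on whether that library is kept. Over the 14 alternatives the log2 fold change of Gpx1 ran from 0.20 to 1.10, and it passed in 1, the fit without that library. The other genes of the 10 showed no such gap for DMSO replicate 2, which ranged from 89.1% to 115% of their DMSO means.

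Sephs2 (ENSMUSG00000049091.6; chr7:127271879-127274055, minus strand, selenocysteine codon at chr7:127273731-127273733) is a selenoprotein and also the enzyme that makes selenophosphate, the selenium donor for selenocysteine. Its level was 29.54, 32.01 and 31.48 FPKM in RSL3 libraries and 26.7, 28.5 and 26.0 FPKM in DMSO libraries. The RSL3 values were all above the DMSO values, by a log2 fold change of 0.19 ± 0.07 (SE, adjusted p = 0.137, limma), which did not pass. It passed after quantile normalization (0.26, adjusted p = 0.0423) and with length and GC trends removed (0.21, adjusted p = 0.0248). Gm44729 overlaps it on the opposite strand.

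The distance from the selenocysteine codon to the last exon junction is given as a description. From the end of the first selenocysteine codon to the last exon junction there were 136 bases in Selenoh, 243 in Selenow, 135 in Selenom and 357 in Selenop, the 4 genes that fell. The distance was 105 bases in Gpx1, 78 in Selenof and 470 in Selenot, which did not pass, and 342 in Gpx4. In Selenok it was 5 bases, in Selenos the codon lay in the last exon, and the Sephs2 transcript has a single exon. The 3 thioredoxin-like genes that fell have GC-rich transcripts, between percentiles 76.7 and 85.4 of the tested mRNAs, as does Gpx1 at percentile 81.8, while Selenop lies at percentile 18.2.

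**Figure D3:**
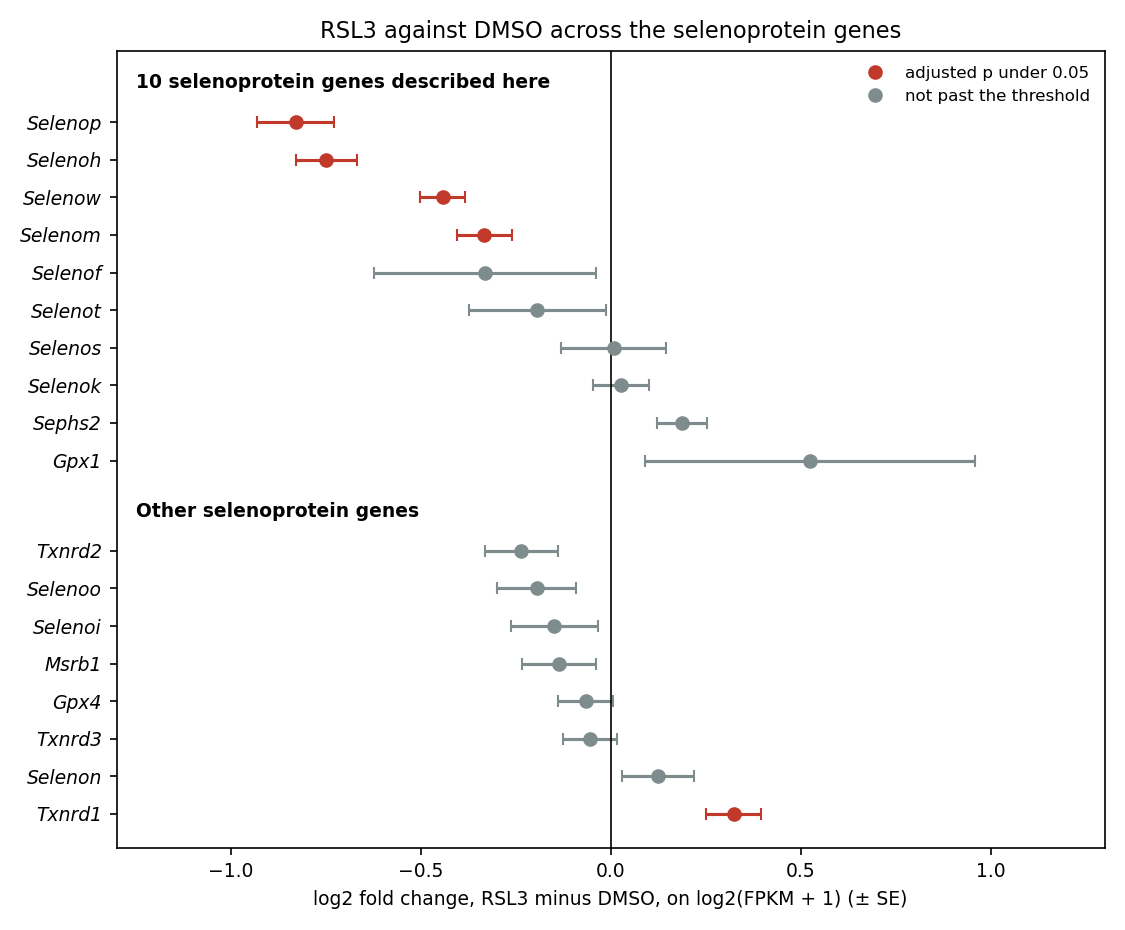
Log2 fold change (RSL3 minus DMSO, log2(FPKM + 1) scale) with its SE for the 10 genes and for 8 other tested selenoprotein genes; red marks an adjusted p under 0.05. Selenop, Selenoh, Selenow and Selenom lie left of 0 and Txnrd1 right of it, and Gpx4 stands at -0.07.

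Among the other selenoprotein genes, 1 of 8 tested rose and 0 fell (limma). At an unadjusted p under 0.05, 1 was higher and 1 lower (limma), and the median log2 fold change was -0.10. As background for this list and those below, 6.38% of all 10590 tested mRNAs were called and 2555 had an unadjusted p under 0.05 (limma). The list counts are small and given as a description. The gene that rose was Txnrd1, the cytosolic thioredoxin reductase, with 72.5, 84.0 and 81.5 FPKM in RSL3 libraries and 61.6, 65.7 and 61.9 FPKM in DMSO libraries (0.32 ± 0.07 SE, adjusted p = 0.0452, limma). This call held in 7 of 14 alternatives. Txnrd2, the mitochondrial reductase, stood at -0.24 (adjusted p = 0.188) and Selenoo at -0.19 (adjusted p = 0.297). Gpx4 had 139, 151 and 164 FPKM in RSL3 libraries and 159, 155 and 160 FPKM in DMSO libraries (-0.07, 95% interval -0.23 to 0.10, adjusted p = 0.627), and stood at 0.0934 after quantile normalization. Gpx3, an extracellular peroxidase, was below the minimum for testing, at 0.249 to 0.498 FPKM in RSL3 libraries and 0.258 to 0.791 FPKM in DMSO libraries. Dio1, Dio2, Dio3, Gpx2 and Selenov were not listed.

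Of 13 genes for the synthesis of selenocysteine and its insertion into protein, 2 fell and 0 rose, with 2 lower and 1 higher at an unadjusted p under 0.05 (limma). Their median log2 fold change was -0.12. Eif4a3, an exon junction factor that also represses UGA recoding by binding some SECIS elements, had 56.9, 65.7 and 62.8 FPKM in RSL3 libraries and 86.5, 85.5 and 83.1 FPKM in DMSO libraries (log2 fold change -0.46 ± 0.07 SE, adjusted p = 0.0126, limma). All 3 RSL3 libraries were lower, and the call held in 10 of 14 alternatives. Sars, the seryl-tRNA synthetase that charges the selenocysteine tRNA with serine, stood at -0.23 ± 0.05 (adjusted p = 0.0480) and held in 4 of 14 alternatives. Secisbp2l, a relative of the SECIS-binding protein, stood at 0.24 (adjusted p = 0.123) and passed without RSL3 replicate 1 (adjusted p = 0.0280). The SECIS-binding protein gene Secisbp2 itself had 3.17, 3.39 and 3.88 FPKM in RSL3 libraries and 3.33, 2.97 and 2.95 FPKM in DMSO libraries.

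The list for uptake and recycling of selenium, in which Sephs1 was also placed, had 4 tested genes. Of these 1 fell, 0 rose and 3 were not called (limma), with a median log2 fold change of 0.07. At an unadjusted p under 0.05, 1 was lower and 1 higher (limma). The gene that fell was Sephs1, a paralog of Sephs2 that lacks selenocysteine. It had 10.9, 13.3 and 12.3 FPKM in RSL3 libraries and 16.0, 16.7 and 15.5 FPKM in DMSO libraries. Its log2 fold change was -0.38 ± 0.09 (SE, adjusted p = 0.0478, limma), a call that held in 8 of 14 alternatives. Scly, the lyase that frees selenium from selenocysteine, had 6.60, 5.61 and 6.01 FPKM in RSL3 libraries and 4.46, 4.43 and 4.66 FPKM in DMSO libraries. The groups of Scly lay apart, and its adjusted p of 0.0525 just missed the threshold (0.36 ± 0.08 SE, limma). The receptor gene Lrp8, which takes up selenoprotein P in the brain, stood at 0.13 (adjusted p = 0.503).

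Of 10 tested genes whose products work with Selenos, Selenok or Selenof in the endoplasmic reticulum, 1 rose and 0 fell (limma). At an unadjusted p under 0.05 (limma), 1 was higher and 0 lower, against 2555 of all 10590 tested mRNAs in either direction. Vcp, the ATPase that pulls misfolded proteins out of the membrane and binds both Selenos and Selenok, had 87.9, 89.2 and 88.7 FPKM in RSL3 libraries and 70.6, 74.6 and 69.4 FPKM in DMSO libraries (0.31 ± 0.05 SE, adjusted p = 0.0220). This call held in 9 of 14 alternatives. Syvn1, the ubiquitin ligase of this route, stood at 0.25 (adjusted p = 0.224) and its partner Sel1l at 0.36 (adjusted p = 0.227), and the groups overlapped for both. The median log2 fold change of the 10 genes of this list was 0.01. The groups lay apart for 2 of them with RSL3 lower and for 1 with RSL3 higher, against 19.6% and 13.4% of all tested mRNAs.

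**Figure D4:**
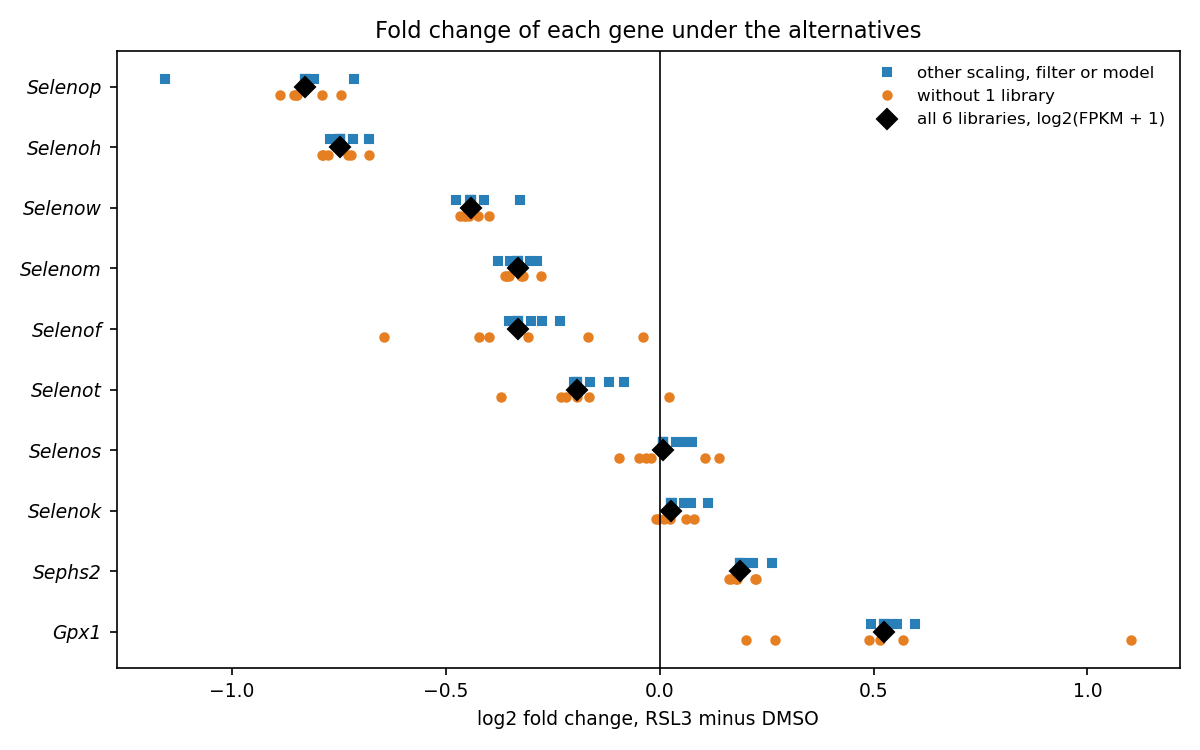
Log2 fold change of each of the 10 genes with all 6 libraries (diamond), under other scalings, filters or models (squares) and with 1 library left out (circles). Selenop, Selenoh, Selenow and Selenom stay left of 0 throughout, Selenos and Selenok scatter around it, and Gpx1 runs from 0.20 to 1.10.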

How the data were processed

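The 6 libraries were made from poly(A)-selected RNA with a stranded kit, per the labels' protocols. Per the submitters' processing notes, the deposited FPKM values were made by the authors with cutadapt, HISAT2 and StringTie 1.3.3 on GRCm38. The sources used here do not give the annotation release or filters. The deposited circRNA signal is headed CPM, and only the circRNA coordinates were used. The RSL3 and DMSO groups were fitted on log2(FPKM + 1) with limma 3.58.1 in R 4.3.3, with a mean-variance trend. Genes needed 1 FPKM or more in 3 or more of the 6 libraries. The same genes were kept when a library was left out. The fit was also run on simulated data with independent noise per gene. Those data held no library-wide GC trend, so they do not show how the fit handles one. Sums were compared by exact permutation. Positions came from GENCODE M21, promoters from RefSeq (GRCm38.p6). Alternatives changed the pseudocount, filter, scaling, length and GC trends, variance model, replicate block and libraries.

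The 10 genes and all lists were chosen with earlier results of these data known. By a fixed rule, the text gives all 10 genes and Gpx4, from each selenium-related list the 3 genes with the smallest p and every one that passed, and the most abundant liver markers. Secisbp2, Gpx3 and the marker gene Tubb3 were chosen after their values were seen. Depth is unknown for FPKM, so no counting interval is given.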

Additional observations from a re-analysis of the deposited data

How the results depend on the processing

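Of 676 mRNAs past the threshold, the number was 1615 with length and GC trends removed, 253 with the replicate block, and 145 to 1299 without single libraries. Quantile normalization gave 350 higher and 329 lower, against 261 and 415. Of the 4 selenoprotein genes called lower, the fits without single libraries called 2 to 4 genes of the 10, where the lowest count came without DMSO replicate 3. The other selenoprotein genes gave 0 calls when no mean-variance trend was fitted, 0 under the replicate block and 0 to 1 without single libraries, against 1. Selenocysteine and selenium genes gave 5 with trends removed, 1 with the block and 0 to 5 without single libraries, against 3. The partners in the endoplasmic reticulum gave 0 with the block and 0 to 1 without single libraries, against 1. The summed difference of the 10 genes ran from -66.2 to -35.5 FPKM without single libraries, and was -48.1 with median-ratio scaling, against -55.0. Values near 0 changed sign: Gpx4 (0.0934, quantile normalization), Selenok (-0.0086 without RSL3 replicate 2, -0.0042 without DMSO replicate 3), Selenos (-0.0942, -0.02, -0.03 and -0.05 without RSL3 replicates 2 and 3 and DMSO replicates 1 and 3) and Selenot (0.0223 without RSL3 replicate 1). Without single libraries they ranged from -0.0086 to 0.0794 (Selenok), -0.0942 to 0.139 (Selenos) and -0.370 to 0.0223 (Selenot). The causes were not tested. Replicate numbers are not stated to pair libraries: deviations of same-numbered libraries correlated at -0.145, 0.0487 and -0.0623, and RSL3 replicate 1 correlated best with DMSO replicate 3. With the replicate block, Selenom (adjusted p = 0.103) lost its call and Selenoh, Selenow and Selenop kept theirs.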

Other observations

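Sephs2 and its paralog Sephs1 were both expressed. Their ratio is given as a description with no test, since the pair was chosen after its values were seen. Sephs2 over Sephs1 in FPKM was 2.71, 2.41 and 2.56 in RSL3 libraries and 1.67, 1.71 and 1.68 in DMSO libraries. The methionine sulfoxide reductase genes that use cysteine in place of selenocysteine stood on opposite sides without passing. Msrb2, the mitochondrial one, had 5.82, 5.44 and 5.34 FPKM in RSL3 libraries and 4.28, 5.13 and 4.08 FPKM in DMSO libraries (log2 fold change 0.25, adjusted p = 0.166, limma). Msrb3 had 5.61, 5.92 and 5.06 FPKM in RSL3 libraries and 7.12, 7.31 and 6.40 FPKM in DMSO libraries (-0.28, adjusted p = 0.107). Msra was below the minimum for testing, and Gpx7 and Gpx8 were not listed.

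Over the 6 libraries, which share 1 cell line and 1 contrast, the levels most like Selenoh on the log2 scale were those of Grk3, Aasdhppt and Ska3 (Pearson r = 0.998, 0.998 and 0.998, among 6686 other genes with a mean of at least 5 FPKM). For Selenow they were Gpt2, Tenm3 and Hist1h2be (0.999, 0.999 and 0.998), and for Selenop, among 6687 genes, Prep, Commd10 and Ncam1 (1.000, 0.998 and 0.997). The points fall into the 2 treatments, and the values are given as a description.

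Of 3168 circRNAs, 1414 were named by coordinates and 0 of these lay within one of the 10 genes; the others were not placed here. The core of the antioxidant response element, TGACNNNGC on either strand, was looked for in promoter windows (250 bases before to 50 after the start). The 10 genes had 12 windows. The core occurred in 1 of these (8.33%), that of Selenok, against 12.4% of 32851 RefSeq windows of all genes. A match is a description of letters, not of a bound site.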
